A study of Mus musculus with 14 samples.

Results

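The genes described here are a set of 10 named for the formative and primed epiblast, of which Pou5f1 and Sox2 are general pluripotency factors. They were followed as mouse embryonic stem cells (mESCs) left the naive state and formed embryoid bodies (EBs), aggregates that differentiate without directed signals. They are Pou5f1, Sox2, Otx2, Pou3f1, Utf1, Dppa3, Dppa5a, Zic2, Sall4 and Sox3. The members were chosen by name, and all 10 were found among the 16181 protein-coding genes of the deposited CPM table, in which counts are scaled to the same total in every library, and among the 50686 genes of the count table. Poly(A) RNA was sequenced from 2 lines made in an mESC line that carries an Osr1-GFP reporter. The control line, shLacZ, stably expressed a short hairpin RNA against LacZ, which mouse cells do not carry, and the other line, shDis3l2, stably expressed one against Dis3l2, an exonuclease that degrades uridylated RNA. Each line was sampled undifferentiated in medium with LIF and 2i (d0) and, after LIF and 2i were withdrawn and EBs were formed in hanging drops with serum and then kept in suspension, every 2 days from d2 to d12. This gave 14 libraries with 1 library per line and day. There is 1 line per hairpin, and the labels do not say how many cultures or EBs a library holds, so the hairpin, the line and the culture cannot be told apart.

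The naive state of mESCs in LIF and 2i resembles the epiblast before implantation. On leaving it, cells pass through a formative state, in which they become competent for germ layer and germ cell fates, and then a primed state that resembles the epiblast after implantation, before primitive streak genes come on. Pou5f1 (OCT4) and Sox2 encode the general pluripotency factors that act in all of these states, while Otx2 and Pou3f1 (OCT6) encode factors of the naive to formative step.

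All 10 members are protein-coding genes of the mouse genome (GRCm38). Pou5f1 (ENSMUSG00000024406) lies on the plus strand of chr17:35506018-35510772 and Sox2 (ENSMUSG00000074637) on the plus strand of chr3:34650405-34652461. Otx2 (ENSMUSG00000021848) lies on the minus strand of chr14:48657679-48667644 and Utf1 (ENSMUSG00000047751) on the plus strand of chr7:139943789-139945112. Zic2 lies at chr14:122475435-122479852, Pou3f1 at chr4:124656807-124660655 and Dppa3 at chr6:122626410-122630272, all on the plus strand. Dppa5a lies at chr9:78367052-78368177, Sall4 at chr2:168748332-168767943 and Sox3 at chrX:60891366-60893430, all on the minus strand. Reads were summed over the exons of each gene.

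Promoter sequence was at hand for 4 of the 10 members in RefSeq windows (GRCm38.p6), and the upstream bases are shown for the general factors Pou5f1 and Sox2 beside Otx2 and Utf1, the members with the largest fitted difference between the lines over d6 to d12. Each is printed 5′ to 3′ on the strand of its gene, and bases inside the gene model of the count table are left off. Capitals mark matches, on either strand, to the octamer core ATGCAAA bound by POU factors, the SOX cores ACAAAG and ACAATG, the GC box GGGCGG and the CCAAT box.

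Pou5f1: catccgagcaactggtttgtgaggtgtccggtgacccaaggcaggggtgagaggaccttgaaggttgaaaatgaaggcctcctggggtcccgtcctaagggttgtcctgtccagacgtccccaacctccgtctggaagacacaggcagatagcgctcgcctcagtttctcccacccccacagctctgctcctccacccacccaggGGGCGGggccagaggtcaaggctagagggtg

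Sox2: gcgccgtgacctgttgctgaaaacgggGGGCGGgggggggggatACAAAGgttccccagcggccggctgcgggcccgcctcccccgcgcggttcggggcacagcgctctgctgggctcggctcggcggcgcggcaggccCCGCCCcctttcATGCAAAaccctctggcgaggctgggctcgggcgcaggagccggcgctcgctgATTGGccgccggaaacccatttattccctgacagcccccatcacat

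Utf1: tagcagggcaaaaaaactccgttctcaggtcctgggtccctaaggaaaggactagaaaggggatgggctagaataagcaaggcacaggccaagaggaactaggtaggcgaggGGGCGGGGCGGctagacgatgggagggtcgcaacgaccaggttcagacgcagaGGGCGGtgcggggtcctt

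Otx2: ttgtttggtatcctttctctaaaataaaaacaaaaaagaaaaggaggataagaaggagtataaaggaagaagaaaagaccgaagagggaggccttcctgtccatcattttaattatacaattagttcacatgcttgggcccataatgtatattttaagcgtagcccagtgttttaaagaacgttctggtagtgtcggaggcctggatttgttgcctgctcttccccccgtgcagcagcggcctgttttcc

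The Pou5f1 sequence covers chr17:35505782-35506017 and the Sox2 sequence chr3:34649745-34649994. The Utf1 sequence covers chr7:139943606-139943788, and the Otx2 sequence, the most upstream of 4 listed starts, covers chr14:48667645-48667894 on the minus strand. Over the full 250 bases before the start, the Sox2 window held 1 octamer core, which 4.12% of all 32851 windows of this length held in at least 1 copy. It also held 1 SOX core, found in 25.2% of all windows, 2 GC boxes, found in 32.7%, and 1 CCAAT box, found in 33.8%. The Utf1 window held 4 GC boxes, of which 3 stand in the part shown and 2 of these overlap, and no match to the other letters. The Pou5f1 window shown, the most upstream of 2 listed, held 1 GC box and, in the part not shown, 1 CCAAT box, and the other window (chr17:35508557-35508806), inside the gene, held 1 SOX core and 1 CCAAT box. The most upstream Otx2 window held 0 matches, the next (chr14:48667509-48667758) held 1 CCAAT box, and the remaining listed windows held 0. These matches are letters only and were not tested against the expression values.

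The libraries held 7178712 to 39888099 reads assigned to genes. A floor of 3 counts corresponds to 0.0752 CPM in the deepest library and to 0.418 CPM in the shallowest, shLacZ d4. Levels below are CPM over the library total of all genes, and intervals are exact 95% Clopper-Pearson intervals of a ratio of counts, which cover counting error only. Dis3l2, the target of the hairpin, stood at 13.7%, 28.1% and 32.1% of its shLacZ level in the libraries labelled shDis3l2 of d0, d2 and d4 and at 55.2% at d6. Later it stood at 97.1% (d8), 94.98% (d10) and 75.4% (d12), so the label is not borne out by the target at d8 and d10, where the 95% intervals include 100%. Naive markers were high in the undifferentiated cells: the summed level of 14 of them was 2724 CPM (shLacZ) and 2363 CPM (shDis3l2) in the d0 libraries and 369 and 362 CPM in those of d2.

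**Figure D1:**
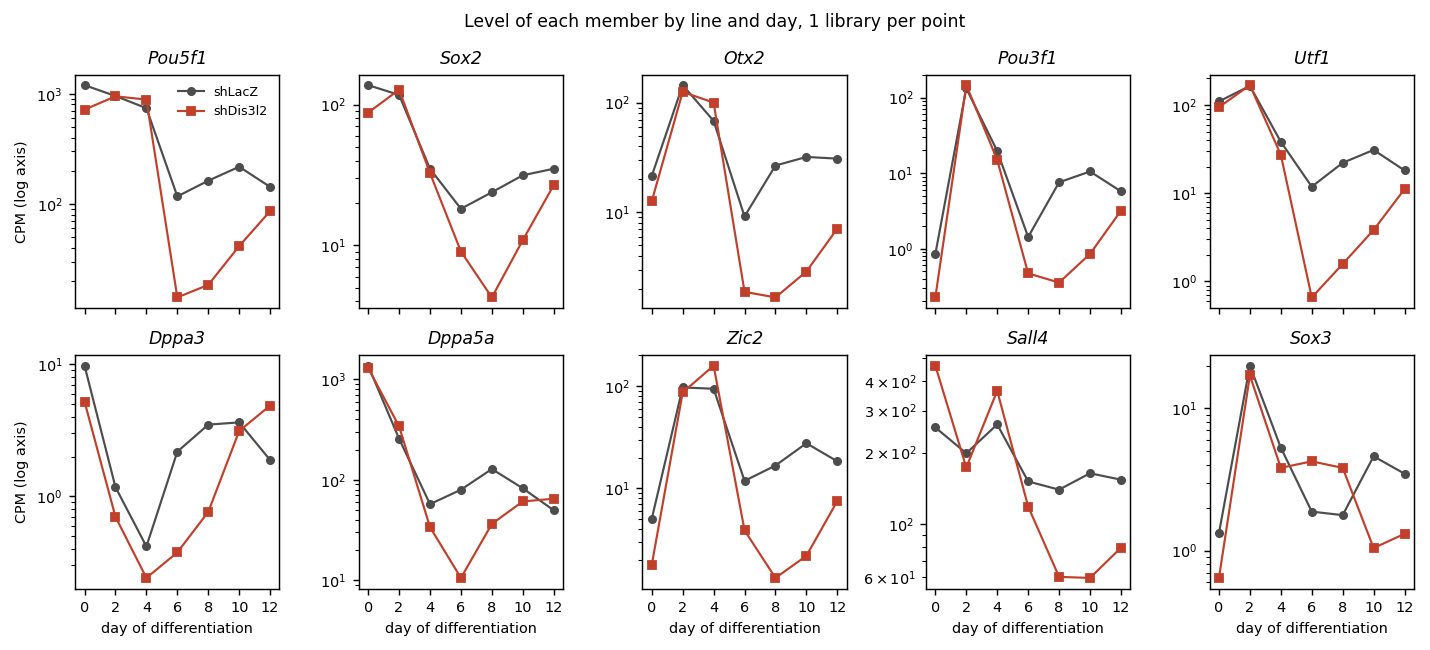
Level of each of the 10 members in CPM (log axis, its range set for each gene) against the day of differentiation, for shLacZ (grey circles) and shDis3l2 (red squares), with 1 library per point. Pou3f1, Zic2, Otx2 and Sox3 rise from d0 to d2 in both lines, most members drop by d6, and from d6 to d10 the libraries labelled shDis3l2 lie below shLacZ for 9 of the 10 genes, all but Sox3, with Dppa3 at d10 within counting error.

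Pou5f1 was among the most abundant members. In shLacZ its level was 1198 CPM in the naive cells, 955 and 740.2 CPM in EBs of d2 and d4, and 117, 163, 218 and 143 CPM in EBs of d6 to d12 in order. In shDis3l2 it was 719 CPM in the naive cells, 949 and 886 CPM in EBs of d2 and d4, and 14.2, 18.5, 41.6 and 86.2 CPM in EBs of d6 to d12 in order. Both lines thus kept a high level up to d4 and dropped by d6, and the 2 lines did not overlap from d6 on. Sox2 was 137 CPM in the naive cells, 117 and 34.96 CPM in EBs of d2 and d4, and 18.2, 23.8, 31.5 and 35.01 CPM in EBs of d6 to d12 in order in shLacZ. It was 87.6 CPM in the naive cells, 127 and 32.6 CPM in EBs of d2 and d4, and 9.05, 4.27, 10.9 and 26.8 CPM in EBs of d6 to d12 in order in shDis3l2. Sox2 thus declined earlier than Pou5f1, with its drop already at d4 in both lines.

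Of the genes that mark the exit from the naive state, Otx2 was at 21.4 CPM in the naive cells, 144 and 68.1 CPM in EBs of d2 and d4, and 9.17, 26.7, 32.0 and 30.8 CPM in EBs of d6 to d12 in order in shLacZ. It was at 12.6 CPM in the naive cells, 125 and 99.97 CPM in EBs of d2 and d4, and 1.89, 1.68, 2.89 and 7.12 CPM in EBs of d6 to d12 in order in shDis3l2. Otx2 was therefore highest at d2 in both lines. Pou3f1, a POU factor of the formative epiblast and of neural cells, was at 0.852 CPM in the naive cells, 133 and 19.6 CPM in EBs of d2 and d4, and 1.43, 7.57, 10.5 and 5.75 CPM in EBs of d6 to d12 in order in shLacZ. It was at 0.227 CPM in the naive cells, 146 and 15.0 CPM in EBs of d2 and d4, and 0.471, 0.356, 0.852 and 3.18 CPM in EBs of d6 to d12 in order in shDis3l2. The high level of Pou3f1 was thus limited to d2 and, at a lower level, d4.

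Zic2, a zinc-finger factor of the ZIC family, was at 5.01 CPM in the naive cells, 97.1 and 94.3 CPM in EBs of d2 and d4, and 11.8, 16.7, 27.6 and 18.3 CPM in EBs of d6 to d12 in order in shLacZ. It was at 1.78 CPM in the naive cells, 86.7 and 159 CPM in EBs of d2 and d4, and 3.86, 1.32, 2.18 and 7.49 CPM in EBs of d6 to d12 in order in shDis3l2, where its highest level came at d4 rather than d2. Utf1, a chromatin-associated factor of pluripotent cells, was at 109.9 CPM in the naive cells, 165 and 38.3 CPM in EBs of d2 and d4, and 11.9, 22.1, 31.0 and 18.1 CPM in EBs of d6 to d12 in order in shLacZ. Its level in shDis3l2 was 94.6 CPM in the naive cells, 168 and 27.3 CPM in EBs of d2 and d4, and 0.660, 1.58, 3.84 and 11.1 CPM in EBs of d6 to d12 in order. Utf1 was thus high in both d0 and d2 and was low in shDis3l2 at d6, where the level rests on 7 counts.

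Sall4, a zinc-finger factor of pluripotent and germ cells, was the steadiest member. Its level lay between 139.7 and 262 CPM over the 7 days in shLacZ and between 59.5 and 463 CPM in shDis3l2. Sox3, a close relative of Sox2, was highest at d2, at 19.98 CPM (shLacZ) and 17.1 CPM (shDis3l2), and lay at or below 5.29 CPM on every other day in either line. Dppa3 (Stella), a maternal and germ cell factor, reached at most 9.75 CPM (shLacZ) and 5.21 CPM (shDis3l2), each in the naive cells. Dppa5a, a small RNA-binding protein of pluripotent cells, was at 1367 and 1298 CPM at d0 and fell to a lowest level of 49.7 CPM in shLacZ, at d12, and of 10.6 CPM in shDis3l2, at d6. Dppa3 and Dppa5a, with their highest levels at d0 in both lines, did not show the d2 peak that the name of the group would imply, and nor did Sall4. Pou5f1 and Sox2 were also highest at d0 in shLacZ, and Zic2 was highest at d4 in shDis3l2. In shLacZ, 4 members were highest at d0, 5 at d2 and 1 at d4. In shDis3l2, 3 were highest at d0, 6 at d2 and 1 at d4, and with TMM scaling (trimmed mean of M values) these counts were 5, 5 and 0 and 5, 4 and 1. With TMM scaling Pou5f1 and Sox2 were highest at d0 in both lines.

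Per kilobase of exon, so that genes can be compared, the order at d2 in shLacZ was led by Pou5f1, at 425 CPM per kilobase, and Dppa5a, at 414. Their ratio of 1.03 (95% interval 0.998 to 1.05) did not part them. Utf1 followed at 134, Sox2 at 56.9 and Otx2 at 42.4. Pou3f1, at 34.5, could not be told apart within counting error from Sall4, at 35.9, or from Zic2, at 33.7, and Sox3 at 9.67 and Dppa3 at 1.32 were lowest. In shDis3l2 at d2 the order opened with Dppa5a at 550.2 and Pou5f1 at 422, and Pou3f1 stood at 38.1 beside Otx2 at 36.8, a ratio of 1.03 (95% interval 0.982 to 1.09).

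The first question the time course allows is how the genes changed on each step of differentiation. With 1 library per line and day, the 2 lines stood in for replicates in edgeR's quasi-likelihood test over 20050 genes, with line as a block, so the p-values measure the disagreement of these lines and not the spread between cultures. At d2 against d0, 4 of 10 members rose and 3 fell, where 34.5% of all genes tested rose and 31% fell. The log2 fold change of Pou3f1 was 7.88 ± 1.09 (SE, adjusted p = 0.000128), that of Zic2 4.49 ± 0.99 (adjusted p = 0.00244), that of Sox3 3.67 ± 0.71 (adjusted p = 0.00112) and that of Otx2 2.51 ± 0.93 (adjusted p = 0.0351) with edgeR. By counts alone Pou3f1 went up 156-fold in shLacZ (95% interval 111 to 225) and 646-fold in shDis3l2 (297 to 1763), where its d0 level rests on 6 counts. Zic2 went up 19.4-fold (16.8 to 22.5) in shLacZ and 48.8-fold (36.6 to 66.7) in shDis3l2. The rise of Otx2 missed the threshold without shDis3l2 d0, shLacZ d0 or shDis3l2 d2.

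The members that fell on this step were Dppa3, with a log2 fold change of -3.57 ± 0.72 (adjusted p = 0.00144), Dppa5a, with -2.73 ± 0.70 (adjusted p = 0.0059), and Sall4, with -1.68 ± 0.54 (adjusted p = 0.0191) from edgeR. Sall4 fell 1.28-fold in shLacZ and 2.67-fold in shDis3l2 by library totals, and its call was lost with library totals and without shDis3l2 d0, shLacZ d2 or shDis3l2 d2. The call of Dppa5a was lost without shLacZ d2, at -2.24 (edgeR, adjusted p = 0.0503). Pou5f1, with a log2 fold change of -0.47 ± 0.79, Sox2, with -0.39 ± 0.50, and Utf1, with 0.11 ± 0.86, did not pass the test. With only the libraries of d0 to d4 in the fit, Pou5f1, at -0.58 (edgeR, adjusted p = 0.0236), and Sox2, at -0.45 (adjusted p = 0.0394), passed as lower. The direction of Pou5f1 and Sox2 depended on the scaling, since with library totals their values were 0.15 and 0.23. On this step the median of all genes tested was 0.12 with TMM, 0.71 with library totals and 0.02 with DESeq2, as the d0 libraries had TMM factors of 0.711 and 0.623 and the others 1.02 to 1.15. Relative to these medians Pou5f1 and Sox2 lay below the typical gene under either scaling.

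Beside the members, 10 of 14 other formative epiblast genes rose and 0 fell at d2 against d0, with a median log2 fold change of 4.25. The largest changes called were those of Fgf5, a growth factor of the formative epiblast, at 9.57 ± 1.48 (edgeR, adjusted p = 0.000262), and Sall2, at 6.01 ± 0.43 (adjusted p = 2.4e-06). Of 14 naive pluripotency genes 10 fell and 0 rose, with a median of -3.74, led by Tcl1 at -5.98 ± 0.72 and Prdm14 at -5.97 ± 0.77.

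From d2 to d4, 3 members fell and 0 rose, where 8.23% of all genes tested fell and 9.25% rose. They were Pou3f1, with a log2 fold change of -3.17 ± 0.83 (edgeR, adjusted p = 0.0261), Dppa5a, with -2.88 ± 0.72 (adjusted p = 0.0215), and Sox2, with -1.91 ± 0.52 (adjusted p = 0.0317). Each of these calls was lost without shDis3l2 d2, shLacZ d4 or shDis3l2 d4. Utf1, with -2.49 ± 0.91 (adjusted p = 0.089), and Sox3, with -2.06 ± 0.66 (adjusted p = 0.0566), did not pass the test. Pou5f1, Otx2, Zic2 and Sall4 had values between -0.52 and 0.78 and adjusted p of 0.363 to 0.902, while Dppa3 was at -1.51. Over the same step 10 of 10 primitive streak genes rose, with a median of 5.83, led by Brachyury (T) at 9.64 ± 1.21 and Mesp1, a factor of early mesoderm, at 9.51 ± 1.41. Of 12 endoderm-like markers 11 rose, among them Foxa2 at 4.86 ± 0.60 and Ttr at 4.67 ± 0.46. The level of Zic2 went from 86.7 to 159 CPM in shDis3l2 (1.83-fold, 95% interval 1.73 to 1.94) and from 97.1 to 94.3 CPM in shLacZ (0.971-fold, 0.891 to 1.06).

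**Figure D2:**
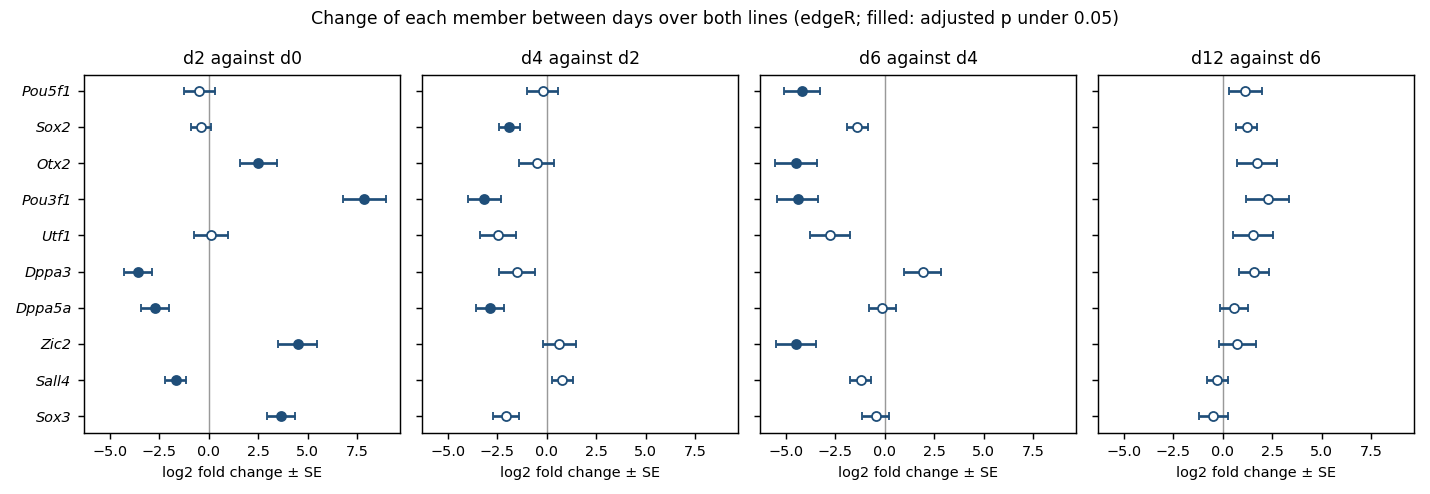
Log2 fold change of each member between days over both lines, with the standard error from edgeR, for d2 against d0, d4 against d2, d6 against d4 and d12 against d6, filled where the adjusted p is under 0.05. The rises are on the first step, at 2.51 to 7.88, the falls of Pou5f1, Otx2, Pou3f1 and Zic2 on the step from d4 to d6 are at -4.21 to -4.50, and no member is filled at d12 against d6.

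The largest falls of the time course came between d4 and d6, when 4 members fell and 0 rose, where 6.24% of all genes tested fell and 7.54% rose. Otx2 had a log2 fold change of -4.50 ± 1.07 (edgeR, adjusted p = 0.0225), Zic2 of -4.50 ± 0.997 (adjusted p = 0.017), Pou3f1 of -4.40 ± 1.04 (adjusted p = 0.0218) and Pou5f1 of -4.21 ± 0.92 (adjusted p = 0.0162). All 4 calls were lost without shDis3l2 d4 or shDis3l2 d6, and without shLacZ d6 only that of Pou5f1 held. By counts, the fall was larger in shDis3l2 for Pou5f1, Otx2 and Zic2, while for Pou3f1 a difference between the lines was not resolved. Pou5f1 went down 6.31-fold in shLacZ (95% interval 5.96 to 6.68) and 62.3-fold in shDis3l2 (53.0 to 73.6). Otx2 went down 7.43-fold (6.08 to 9.13) and 53.0-fold (34.3 to 87.0), and Zic2 7.99-fold (6.71 to 9.57) and 41.1-fold (30.2 to 57.3). Utf1, which missed the threshold (adjusted p = 0.0944), went down 3.23-fold (2.64 to 3.95) in shLacZ and 41.4-fold (20.0 to 103) in shDis3l2. These 4 pairs of intervals do not overlap. Those of Pou3f1 do, at 13.8-fold (8.49 to 23.5) in shLacZ and 31.9-fold (13.5 to 98.9) in shDis3l2. All of them hold counting error only, and the difference of a single step between the lines has no replicate check. The share of all genes whose intervals do not overlap on this step was not counted. On this step 6 of 14 other formative epiblast genes fell and 0 rose, among them Pim2 at -5.29 ± 1.001 and Fgf5 at -5.29 ± 1.12, and 8 of 10 primitive streak genes fell, among them Mesp1 at -6.18 ± 1.18 and Lhx1 at -5.91 ± 1.23.

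From d6 to d12 no member passed the test in edgeR or DESeq2, with values between -0.48 ± 0.72 for Sox3 and 2.28 ± 1.09 for Pou3f1 and adjusted p of 0.189 or more, and 1 member, Sox2, had an unadjusted p under 0.05 from edgeR. Of all genes 5.02% rose and 2.15% fell. Within the libraries labelled shDis3l2, the level went up from d6 to d12 for 8 members with an interval above 1. Utf1 went up 16.9-fold (95% interval 7.95 to 42.9), Dppa3 12.9-fold (4.75 to 49.2), Pou3f1 6.76-fold (2.63 to 22.1), Dppa5a 6.14-fold (5.02 to 7.56) and Pou5f1 6.06-fold (5.10 to 7.25), while Otx2, Sox2 and Zic2 went up 3.78-fold, 2.96-fold and 1.94-fold. In shLacZ over the same days Pou5f1 went up 1.22-fold (1.13 to 1.31), Utf1 1.53-fold (1.23 to 1.90) and Otx2 3.36-fold (2.72 to 4.18). Pou3f1 went up 4.03-fold (2.36 to 7.16), Sox2 1.92-fold (1.63 to 2.28) and Zic2 1.55-fold (1.25 to 1.94) in shLacZ, and Dppa5a went down 1.603-fold (1.44 to 1.79). The intervals of Otx2, Pou3f1 and Zic2 overlap between the lines, so a rise on these days was not particular to shDis3l2. The share of all genes that rose in this way was not counted. The late rise of these members in shDis3l2 thus started from low levels at d6, and 6 of the 8 genes were still below their shLacZ level at d12, all but Dppa3 and Dppa5a.

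The second question is whether the lines differed. Over d0, d2 and d4, with the 3 days as stand-ins for replicates and day as a block, 0 of 10 members and 0% of 17419 genes passed in either direction (0% higher and 0% lower) with edgeR, at which 1374 genes had an unadjusted p under 0.05 and DESeq2 called 19 genes and 0 members. Values of the members ran from -0.66 ± 0.31 for Dppa3 to 0.50 ± 0.22 for Sall4 (adjusted p of 0.640 or more). Dis3l2 itself did not pass with edgeR either, although it stood at 13.7% to 32.1% of its shLacZ level on these days. The test thus missed a difference present on all 3 days, so 0 of 10 does not show that the lines were alike. Within single days, genes counted as different when the ratio was at least 3 and the CPM at least 1 in either library of the day. By this rule 0 members differed at d0, d2 or d4, where 2.96%, 0.258% and 2.08% of protein-coding genes did. At d0, 9 members were lower in shDis3l2 with an interval below 1, and Sall4 was 1.82-fold higher (1.77 to 1.87). The share of all genes with such an interval was not counted, and the count of members depended on the scaling. Ratios were below 1 for 8 members with TMM factors and for 7 with DESeq2 size factors. Dppa5a turned to 1.08 and 1.24 under these, and Utf1 to 1.13 with DESeq2. The median of the 10 was -0.75 on the log2 scale, beside -0.32 for all protein-coding genes compared. At d2 the 10 members lay between -0.75 and 0.41 on this scale. At d4 the members were split, with 4 ratios above 1 and 6 below 1 and a median of -0.24 on this scale. Zic2 was 1.68-fold (1.55 to 1.83), Otx2 1.47-fold (1.33 to 1.62), Sall4 1.38-fold (1.32 to 1.46) and Pou5f1 1.197-fold (1.16 to 1.23) higher in shDis3l2 at d4. Of the 6 lower members, 3 had an interval below 1: Dppa5a was 1.695-fold, Utf1 1.403-fold and Pou3f1 1.31-fold lower in shDis3l2.

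**Figure D3:**
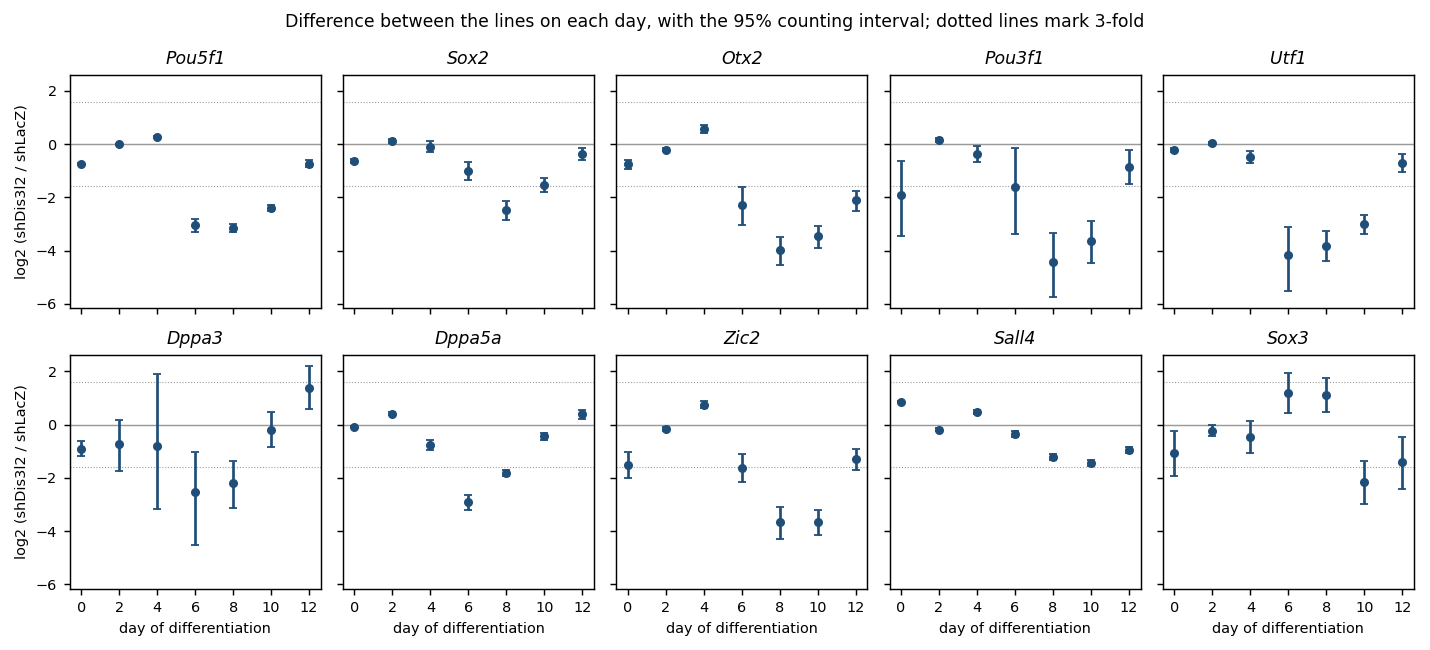
Log2 ratio of shDis3l2 over shLacZ for each member against the day of differentiation, with its 95% counting interval and dotted lines at 3-fold. The ratios lie at -0.75 to 0.41 at d2 and at -0.79 to 0.75 at d4, fall to as low as -4.41 between d6 and d10 and come back to between -2.12 and 1.37 at d12.

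From d6 on most members were lower in the libraries labelled shDis3l2. At d6, 7 of 10 members were at least 3-fold lower, where 4.27% of protein-coding genes were. Pou3f1 was near the cut, 3.03-fold lower (95% interval 1.09 to 10.4) on 5 counts against 19. With DESeq2 size factors or deposited CPM values 6 members were lower at d6. The count was 8 of 10 at d8 beside 3.77% of genes, 6 of 10 at d10 beside 3.17%, and 1 of 10, Otx2, at d12 beside 1.42%. No member was 3-fold higher on any day. Utf1 was 18.0-fold lower at d6 (95% interval 8.53 to 45.5), 14.03-fold lower at d8 (9.72 to 20.9), 8.08-fold lower at d10 (6.27 to 10.5) and 1.63-fold lower at d12 (1.29 to 2.07). Otx2 was 4.87-fold (3.02 to 8.24), 15.9-fold (11.2 to 23.4), 11.1-fold (8.35 to 14.9) and 4.33-fold (3.36 to 5.65) lower on the same days. The d6 and d8 intervals of Utf1 overlap, so its day of largest difference was not resolved, while Otx2 had a larger ratio at d8 than at d6 or d12. Pou5f1 was 8.24-fold (6.97 to 9.81), 8.82-fold (7.90 to 9.86), 5.24-fold (4.83 to 5.69) and 1.66-fold (1.53 to 1.80) lower. Pou3f1 was 21.3-fold lower at d8 (10.0 to 54.0) and 12.4-fold lower at d10 (7.38 to 21.8), and Zic2 12.6-fold (8.43 to 19.6) and 12.7-fold (9.20 to 17.8). At d8 and d10 the level of Dis3l2 itself did not differ between the lines beyond counting error.

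The other members followed other courses. Sox2 was 5.58-fold lower at d8 (95% interval 4.40 to 7.14) and 1.31-fold lower at d12 (1.12 to 1.53). Dppa5a was 7.55-fold lower at d6 (6.21 to 9.25) and 1.30-fold higher at d12 (1.16 to 1.47), and Dppa3 was 5.78-fold lower at d6 (2.03 to 22.6), from 4 counts against 29, and 2.58-fold higher at d12 (1.502 to 4.63). Both thus crossed the shLacZ level by d12. Sox3 ran the other way, 2.26-fold higher at d6 (1.36 to 3.84) and 2.15-fold higher at d8 (1.39 to 3.40), then 4.42-fold lower at d10 (2.55 to 7.84), all on 75 counts or fewer. Sall4 never reached 3-fold, with a largest ratio of 2.75-fold lower at d10 (2.54 to 2.97).

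Over d6 to d12, with the 4 days as stand-ins for replicates, 7 of 10 members were lower in shDis3l2 and 0 higher (edgeR over 16016 genes), where 19.2% of all genes tested were lower and 19.7% higher. The log2 fold change was -2.99 ± 0.33 for Otx2 (adjusted p = 0.00116), -2.71 ± 0.54 for Utf1 (adjusted p = 0.00848), -2.64 ± 0.60 for Pou3f1 (adjusted p = 0.0139), -2.52 ± 0.45 for Zic2 (adjusted p = 0.00598), -2.31 ± 0.39 for Pou5f1 (adjusted p = 0.00484), -1.33 ± 0.31 for Sox2 (adjusted p = 0.0155) and -0.998 ± 0.17 for Sall4 (adjusted p = 0.00478). Each of these 7 genes was lower on 4 of 4 days. Dppa5a, with -1.14 ± 0.49 (adjusted p = 0.11), Dppa3, with -0.67 ± 0.61 (adjusted p = 0.421), and Sox3, with -0.22 ± 0.61 (adjusted p = 0.802), did not pass. The median of the 10 was -1.82, beside 0.01 for all genes tested. The count fell to 4 without d10, when Sox2, Pou3f1 and Utf1 were lost. In bulk RNA, fewer cells of a type and less RNA per cell cannot be told apart.

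The change of the line difference between the early days (d0 to d4) and the late days (d6 to d12) was tested in 1 fit over 14 libraries and 16739 genes. It passed for 6 of 10 members, all in the negative direction, where 6.41% of all genes tested changed in that direction and 6.14% in the other. The change was -3.04 ± 0.42 on the log2 scale for Otx2 (edgeR, adjusted p = 0.00581), -2.59 ± 0.59 for Utf1 (adjusted p = 0.023), -2.51 ± 0.63 for Zic2 (adjusted p = 0.032), -2.46 ± 0.69 for Pou3f1 (adjusted p = 0.0459), -2.33 ± 0.49 for Pou5f1 (adjusted p = 0.0178) and -1.54 ± 0.33 for Sall4 (adjusted p = 0.0178). Sox2, at -1.28 ± 0.39, missed the threshold (adjusted p = 0.0577). The count fell to 1, Otx2, without d8 or without d10, to 2 without d2 and to 3 without d0. Pou3f1 and Zic2 were lost with library totals, and with DESeq2 Pou3f1 was lost and Sox2 gained. Of 14 other formative epiblast genes, 10 changed in the negative direction and 0 in the other, led by Foxd3 at -3.65 ± 0.61 and Fgf5 at -3.32 ± 0.54. Dis3l2 itself passed in the positive direction, at 1.61, so the knockdown was weaker in the late libraries.

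Markers of other states and cell types were compared between the lines over d6 to d12 as well. Of the 13 other formative epiblast genes tested of 14, 10 were lower in shDis3l2 and 1 higher, with a median of -1.74. Fgf5 was at -3.29 ± 0.45 (edgeR, adjusted p = 0.00238) and Pim2 at -2.37 ± 0.41 (adjusted p = 0.00498). Of 14 naive pluripotency genes 9 were lower and 0 higher, with a median of -1.10, among them Fgf4 at -2.03 ± 0.38 and Zfp42 (Rex1) at -1.77 ± 0.47. Of 8 primitive streak genes tested of 10, 5 were lower, among them Fgf8 at -3.09 ± 0.57 and Mixl1 at -2.95 ± 0.59. Germ cell-like markers, which bear on Dppa3 and Sall4, were lower for 3 of 10 and higher for 0, a count near the 19.2% of all genes tested, with Ddx4 at -1.48 ± 0.37 and Dppa4 at -1.41 ± 0.24.

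Of 12 endoderm-like markers 11 were lower in shDis3l2 over d6 to d12, among them Apob at -2.24 ± 0.11 and Cubn at -2.13 ± 0.11, and their summed level was 3125 to 6893 CPM in shLacZ and 737 to 2097 CPM in shDis3l2. Otx2 and Sall4 are also known from endoderm, and the part of this difference in the members' result was not tested. Sox2, Sox3, Zic2, Pou3f1 and Otx2 are also genes of neural cells. The 14 neural-like markers summed to 50.3 to 112 CPM in shLacZ and 86.4 to 211 CPM in shDis3l2 over these days, and of the 5 that could be tested Nes was among the 2 higher, at 1.07 ± 0.17, and Pax6 was the 1 lower, at -1.08 ± 0.30. The sum was higher in shDis3l2 at d6 (211 against 74.4 CPM), d8 (128 against 50.3 CPM) and d10 (86.4 against 74.0 CPM). At d12 it was lower (106 against 112 CPM). Nes, at 25.3 to 83.8 CPM, and Msi1, at 14.5 to 32.0 CPM, both also known from other cells, were well above the floor over these days. Tubb3 is in the list as well, and the sums do not rest on Nes and Msi1 alone. Hes5, Neurog1, Neurog2 and Olig2 were under 1 CPM in every library of d6 to d12 in both lines, and Sox1 lay between 0 and 1.40 CPM in shDis3l2 and between 0.0592 and 8.43 CPM in shLacZ, where it was highest at d12. Pax6 lay between 0.0942 and 2.15 CPM in shDis3l2 and between 0.376 and 5.55 CPM in shLacZ, highest at d12 in both. The part of neural cells in the members' values was not tested. The 9 chromosomes that carry the members had median log2 ratios between the lines of -0.056 to 0.13 over d6 to d12.

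**Figure D4:**
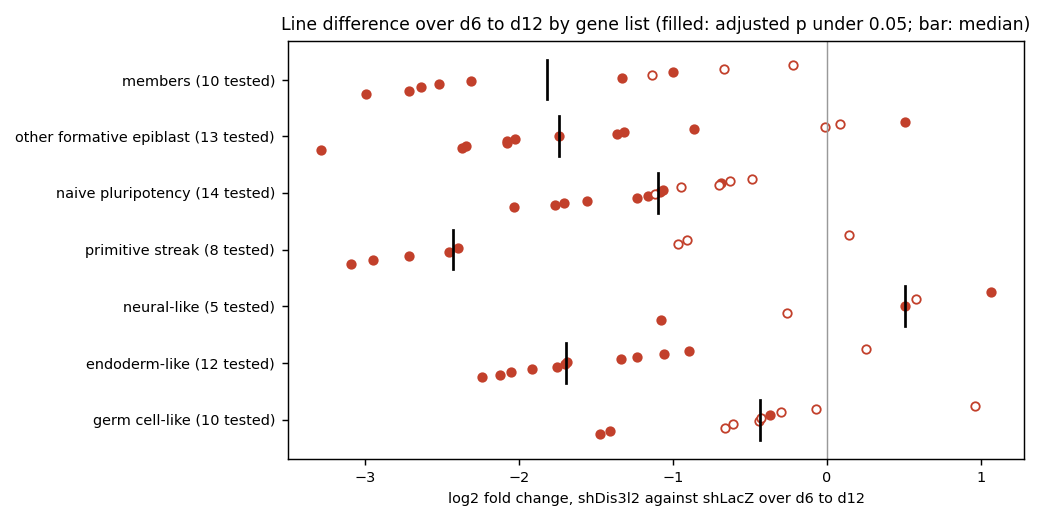
Log2 fold change of shDis3l2 against shLacZ over d6 to d12 for each gene tested of the members and of 6 other lists, filled where the adjusted p from edgeR is under 0.05, with a bar at the median of the list. The medians are -1.82 for the members, -1.74 for other formative epiblast genes, -2.43 for primitive streak genes, -1.69 for endoderm-like markers, -1.10 for naive genes, -0.43 for germ cell-like markers and 0.51 for the 5 neural-like markers tested.

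The members did not share 1 pattern over the 14 libraries. As a description over log2(CPM + 1), with libraries that share lines and days, Pearson's r was 0.961 for Sox2 and Utf1, 0.95 for Pou5f1 and Utf1, 0.904 for Pou5f1 and Sox2, 0.907 for Otx2 and Zic2, 0.89 for Pou3f1 and Zic2 and 0.849 for Pou3f1 and Sox3. Otx2 was also close to Pou5f1 (0.864) and to Utf1 (0.827) and less so to Sox3 (0.612), so the members did not fall into separate groups. Dppa3 had r of -0.636 with Sox3, -0.493 with Zic2 and 0.63 with Dppa5a. Among 12854 protein-coding genes with at least 5 CPM in 1 library, the 3 most like Pou5f1 were Fut9 (r = 0.986), Tdgf1 (0.983), which encodes the Nodal coreceptor Cripto, and Cnpy1 (0.975). For Zic2 they were Ina (0.988), Zic5 (0.981), its neighbour in the same family, and Pim2 (0.976). For Pou3f1 they were Foxi3 (0.984), Tfe3 (0.982) and Tet1 (0.982), and for Utf1 they were Mkrn1 (0.981), Mcf2 (0.973) and Dnmt3l (0.972).

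For Otx2 the 3 most like genes were Gstt2 (r = 0.971), Dab1 (0.97) and Slc35f2 (0.968), and for Sox2 they were Sptbn4 (0.967), Hpdl (0.964) and Nudt19 (0.963). For Dppa5a they were Hsf2bp (0.982), Morc1 (0.981) and Slc28a1 (0.977), of which Hsf2bp and Morc1 are known from germ cells. For Sall4 they were Sac3d1 (0.952), Smn1 (0.943) and Hmga1 (0.942). The likeness was lowest for Dppa3, with Glb1 (0.93) and Cdkn2a (0.927), and Sox3, with Plcxd1 (0.918), Gm20939 (0.911) and Ahdc1 (0.909), which are also the members with the fewest counts. No member was among the 3 genes most like another member.

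Some members share sequence or place with other genes, and whether the counting used strand or reads with several alignments is not given in the sources used here. Dppa5b, a pseudogene copy of Dppa5a, held up to 11118 reads in a library against up to 54529 for Dppa5a, and Dppa3-ps held up to 130 against up to 389 for Dppa3, so the levels of Dppa5a and Dppa3 are uncertain to that extent. The genes whose exons overlap Pou5f1, Pou3f1 and Sall4 on the opposite strand held at most 8, 20 and 11 reads in a library, and Sox2ot, whose span includes Sox2, held at most 48.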

How the data were processed

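The members and gene lists were chosen with earlier results of these data known. Poly(A) RNA of 14 libraries was analysed, 1 per line and day. According to the submitters' processing notes, reads were handled with FastQC, Subread, featureCounts and limma, and the build was GRCm38. The authors deposited counts as whole reads per gene, without normalization. They also deposited CPM of protein-coding genes, which match counts with 0.25 added, scaled by the sum over those genes. Options for strand and multiple alignments were not given in the sources used here. The column names of the table for the shDis3l2 line were matched to it through the study's supplementary headings.

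CPM was computed from the counts over library totals, which run from 7178712 to 39888099 reads. Ratios of counts have exact 95% Clopper-Pearson intervals and leave out all other error, as amplified reads carry no molecular identifiers. Between the lines of a day, protein-coding genes counted as different at a fold of at least 3 with a CPM of at least 1 in either library. Tests were two-sided quasi-likelihood tests (edgeR 4.0.16, R 4.3.3) with TMM scaling and the filterByExpr filter, called at a Benjamini-Hochberg adjusted p under 0.05, with line or day as a block. SE is the absolute log2 fold change divided by the square root of F. DESeq2 1.42.0, library totals, no filter, no block, fewer libraries in the fit and leave-one-out fits were alternatives. Likeness was Pearson's r of log2(CPM + 1), without p. Besides the members and Dis3l2, the genes named are the 2 called with the largest change per list and test, the 3 most like each member (2 for Dppa3, as 1 is not reported here), and further neural markers, which were chosen after their values were seen. The lists are other formative epiblast, naive pluripotency, primitive streak, neural-like, endoderm-like and germ cell-like genes. Python 3.11.15 with numpy 2.4.6, pandas 2.3.3, scipy 1.17.1 and matplotlib 3.10.9 ran the other steps.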

Additional observations from a re-analysis of the deposited data

Results flagged for a closer look

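The difference between the lines changed between the early days (d0 to d4) and the late days (d6 to d12) for 6 members by the test of that change itself, with edgeR over 16739 genes. The change was -2.33 on the log2 scale for Pou5f1, -3.04 for Otx2, -2.46 for Pou3f1, -2.59 for Utf1, -2.51 for Zic2 and -1.54 for Sall4. The days of 1 series stood in for replicates, and the calls of members other than Otx2 were lost in at least 1 fit without a single day. By the same test Dis3l2, the target of the hairpin, changed in the positive direction, at 1.61, so the knockdown itself was weaker on the late days.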

How the results depend on the processing

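No member called by edgeR changed sign in any fit. Of the values of called members under the alternatives, 177 stayed past the threshold and 71 did not. Of the reported values that missed the threshold, these turned sign. With library totals, d2 against d0 gave 0.15 for Pou5f1 and 0.23 for Sox2, and DESeq2 gave -0.040 for Utf1. Without the line term, d6 against d4 gave 0.060 for Dppa5a. Leaving out 1 library gave, at d2 against d0, -1.49 to 0.11 for Pou5f1, -1.04 to 0.063 for Sox2 and -1.05 to 1.19 for Utf1. It gave, at d4 against d2, -1.44 to 0.86 for Pou5f1, -2.28 to 0.63 for Otx2 and -1.18 to 1.70 for Zic2, and at d6 against d4 -1.50 to 0.24 for Sox3 and -1.87 to 0.74 for Dppa5a. It gave -1.24 to 0.51 for Sox3 at d12 against d6 and, leaving out 1 day, -0.76 to 0.39 for Sox3 between the lines over d6 to d12. The cause was not tested.

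The members called at d4 against d2 were 5 with no filter, 5 with only d0 to d4 and 0 without the line term, and at d6 against d4 they were 0 without the line term. Between the lines they were 1 (Sall4) with no filter over d0 to d4 and 4 with no day term over d6 to d12, and the change of the line difference passed for 0 with no day term and for 4 with library totals, without Pou3f1 and Zic2. Leaving out 1 library or day gave 5 to 6 members at d2 against d0, 0 to 3 at d4 against d2, 0 to 4 at d6 against d4, 0 at d12 against d6, 4 to 8 between the lines over d6 to d12 and 1 to 7 for the change.

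All genes called without the line term were 2170 at d4 against d2, 1344 at d6 against d4 and 334 at d12 against d6, against 3506, 2762 and 1439. With only d4 to d12 in the fit they were 4273 and 3164 at the latter steps, and with DESeq2 2706 at d12 against d6. Over d0 to d4 the lines gave 19 genes with DESeq2 and 241 with no filter against 0. Over d6 to d12 they gave 3334 with no day term against 6217, and for the change 3279 with no filter and 0 with no day term against 2100. Leaving out 1 library or day gave 11035 to 12491, 1032 to 2173, 309 to 1782 and 95 to 464 genes on the 4 steps, 7 to 19 and 3200 to 6480 between the lines and 457 to 2192 for the change. For the change, library totals moved the calls to 1157 higher and 423 lower from 1027 and 1073, at d2 against d0 to 9265 and 4107 from 6924 and 6212, and at d6 against d4 to 1258 and 1453 from 1511 and 1251.

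With no minimum CPM, 2436, 1639, 2206, 2990, 3362, 3727 and 3185 genes were at least 3-fold different at d0 to d12, against 360, 34, 270, 908, 1248, 1631 and 1342. At d0, 1 member, Pou3f1, was 3-fold lower with TMM factors, with deposited CPM values or with no minimum CPM, against 0. Of the 30 genes most like the members, 20 stayed with TMM scaling and 20 with a pseudocount of 0.1. Depth limits Pou3f1, Dppa3 and Utf1, each with under 10 counts in at least 1 library. The labels give no replicate numbers to pair. Line or day was the block in every test, and the counts without that term are those given above.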
